A study of Mus musculus with 7 samples.

Results

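A set of 491 fibroblasts of the mouse seminal vesicle was selected on UMIs (unique molecular identifiers, each standing for 1 captured transcript) of 3 genes, *Col6a5*, *Clec3b* and *Sult1e1*. A cell entered the set when it had at least 500 genes, at most 10% of its UMIs from mitochondrial genes, at least 2 of the fibroblast genes *Col1a1*, *Col1a2*, *Pdgfra*, *Dcn* and *Lum*, and at least 2 UMIs summed over the 3 gate genes. Cells with any UMI of *Rorb*, *Wif1* or *Wnt2*, of *Ptprc* or of *Pecam1*, or with more than 1 UMI of *Angptl7*, were left out. The 491 members made up 11.6% of the 4233 stromal cells (no *Ptprc* or *Pecam1*, at least 2 fibroblast genes) and 2.23% of the 22065 cells kept from 21 mice. They are called Col6a5 Clec3b fibroblasts below.

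The study profiled the adult mouse seminal vesicle by droplet single-cell RNA-seq across age, rapamycin treatment and diet. An aging pool held 10 C57BL/6J mice: 2 untreated at 3 months, 2 untreated and 2 given rapamycin at 20 months, and as many of each at 28 months. A diet pool held 8 FVB/NJ mice of 3 months, 2 on each of 4 diets (low protein, high fat, caloric restriction or control), and 3 further single-mouse libraries came from FVB/NJ mice of 3 months on control, high fat and low protein diets. A further 2 FVB/NJ mice, 1 of 3 months and 1 of 18 months, each gave a library of its own, labelled seminal vesicle, that lay outside the rule. Those 2 libraries went against their label. Over all their cells they had 3.55 and 3.04 CPM (UMIs scaled to a total of 1e+06) of *Svs5*, a secretory protein gene of the seminal vesicle, against 34607 to 340816 CPM in the 21 mice. *Gpx5*, a peroxidase gene known from the epididymis, had 30504 and 44205 CPM there and at most 0.546 CPM in the 21 mice. Mice of a pool were told apart by lipid tags, and the leading tag was the assigned one in 97.96 to 100% of cells per mouse. The aging pool mice without rapamycin carried the label chow, which was none of the 4 diets of the diet pool. Strain, feed, pool and sequencing run thus changed together between the aging and diet pools and cannot be told apart in any comparison of the pools. Of the aging pool, 2 mice had the age of the diet pool mice. Kept cells held 1711337 to 14753284 UMIs per mouse in the aging pool, 974010 to 9832799 in the diet pool and 35673458 to 46338707 in the single-mouse libraries. The 2 pools shared 1 cell barcode, and no pair of libraries shared more than 20.

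Fibroblasts lay down the collagens, proteoglycans and elastic fibres of connective tissue and signal to the epithelium that they surround. In many organs an adventitial kind, known for *Pi16* and *Dpt*, lies around vessels and in outer layers, and a parenchymal kind, known for *Col15a1*, lies within the tissue. In the seminal vesicle, a gland that secretes much of the seminal fluid, stromal cells respond to androgen and help to maintain the secretory epithelium.

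The 3 gate genes have unlike products. *Col6a5* (chr9:105856078-105960643, minus strand, GRCm38) encodes a chain of collagen VI, a microfibrillar collagen found around cells. *Clec3b* (chr9:123150946-123157432, plus strand) encodes tetranectin, a secreted protein that binds plasminogen. *Sult1e1* (chr5:87575969-87591594, minus strand) encodes estrogen sulfotransferase, which inactivates estrogens by adding sulfate. *C7* (chr15:4988762-5063740, minus strand), a marker named for this population but not used to choose the cells, encodes a component of the complement attack complex.

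Members carried a median of 2649 UMIs, 1114 genes and 5 gate UMIs, with a highest count of 89 gate UMIs in 1 cell. *Clec3b* was detected in 75.6% of them (371 cells), *Sult1e1* in 69.9% (343 cells) and *Col6a5* in 48.7% (239 cells). All 3 were detected together in 24.0% (118 cells) and at least 2 of the 3 in 70.1% (344 cells). *Clec3b* alone accounted for 17.5% of members, and *Clec3b* with *Sult1e1* but no *Col6a5* for 24.8%. The gate thus took in cells with different combinations of the 3 genes, more of them with *Clec3b* than with *Col6a5*. The 88 members with exactly 2 gate UMIs had 154 CPM of *C7* (over the summed cells), 191 CPM of *Pi16*, 5447 CPM of *Dcn* and a median of 1808 UMIs. The 160 otherwise eligible cells with 1 gate UMI had 56.5 CPM of *C7*, 92.8 CPM of *Pi16*, 4413 CPM of *Dcn* and a median of 1566 UMIs. Of the cells with enough gate UMIs, 55 were left out for *Rorb*, *Wif1* or *Wnt2* and 68 for *Angptl7*.

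Gate UMIs were then counted in cells of other kinds. At least 2 of them occurred in 14.5% of stromal cells (95% exact binomial interval 13.5 to 15.6%, median 2539 UMIs), in 0.0512% of 1952 immune cells, in 0.902% of 665 endothelial cells and in 0.100% of 8969 cells rich in seminal vesicle secretory transcripts (median 13501 UMIs). Most of the last kind, 8157 cells, came from the single-mouse libraries, at 0.0123%. In the aging pool the share was 1.32% of 455 such cells (median 39218 UMIs) and 1.43% of 210 endothelial cells, against 19.7% of stromal cells, and in the diet pool 0.560% of 357 (median 28829 UMIs) and 1.42% of 212, against 13.7%. These cells of other kinds had been chosen to lack all 5 fibroblast genes, which also leaves out cells with free fibroblast RNA and doublets with fibroblasts. With any number of fibroblast genes allowed, the shares were 1.46% of 2262 immune, 1.61% of 809 endothelial and 0.332% of 9628 secretory cells, with 1.81, 2.90 and 2.17% in the aging pool and 0.801, 1.49 and 1.27% in the diet pool. To read each gate gene in cells that it had not helped to choose, members were chosen again by the other 2 genes, and the comparison cells (at least 2 UMIs summed over *Rorb*, *Wif1* and *Wnt2*) had to lack only those 2. Members so chosen had 459 CPM of *Col6a5* against 5.02 CPM in the comparison cells, higher in 17 of 17 mice. For *Clec3b* the values were 783 and 9.52 CPM, higher in 14 of 14 mice, and for *Sult1e1* 861 and 0.837 CPM, higher in 15 of 15 mice. The gate genes therefore occurred together in the same cells in each mouse with enough cells. Doublet scoring marked 417 of the 22065 cells as doublets, of which 7 were members.

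The comparison population was the 2243 stromal cells with at least 2 UMIs summed over *Rorb*, *Wif1* and *Wnt2*, none of the 3 gate genes and at most 1 UMI of *Angptl7*, called Rorb fibroblasts below. *Wnt2* encodes a Wnt ligand and *Wif1* a secreted Wnt inhibitor. Members numbered 186 in the aging pool, 225 in the diet pool and 80 in the single-mouse libraries, from 4 to 113 per mouse with a median of 18. Only the 17 mice with at least 10 members entered the comparisons of genes, which left out 1 mouse each of 20 months and of 28 months with rapamycin (9 members each), 1 control pool mouse (4 members) and 1 high fat pool mouse (7 members). UMIs were summed per mouse and population.

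Of the genes that the choice used, *Col6a5* ran from 153 to 970 CPM in members over the 17 mice, with a median of 491 CPM and the lowest value in 1 mouse of 3 months of age. *Clec3b* ran from 370 to 2482 CPM with a median of 795, lowest in the control single-mouse library and highest in the other 3-month mouse. *Sult1e1* ran from 426 to 1466 CPM with a median of 891, lowest in a control pool mouse and highest in a 20-month mouse without rapamycin. All 3 were at 0 in Rorb fibroblasts by the choice of cells. *Dcn*, the proteoglycan decorin, had 5140, 9083 and 13353 CPM (lowest, median, highest mouse) in members and 1149, 1719 and 2957 CPM in Rorb fibroblasts, so the 2 ranges did not overlap. *Lum*, the proteoglycan lumican, had 313, 712 and 2150 CPM in members and 0, 18.4 and 43.9 CPM in Rorb fibroblasts, again with no overlap. *Col1a1* and *Col1a2*, the chains of collagen I, were higher in members of 15 and 16 of 17 mice, and *Pdgfra*, a growth factor receptor of fibroblasts, in only 5. These 5 fibroblast genes were part of the choice and were not tested.

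**Figure D1:**
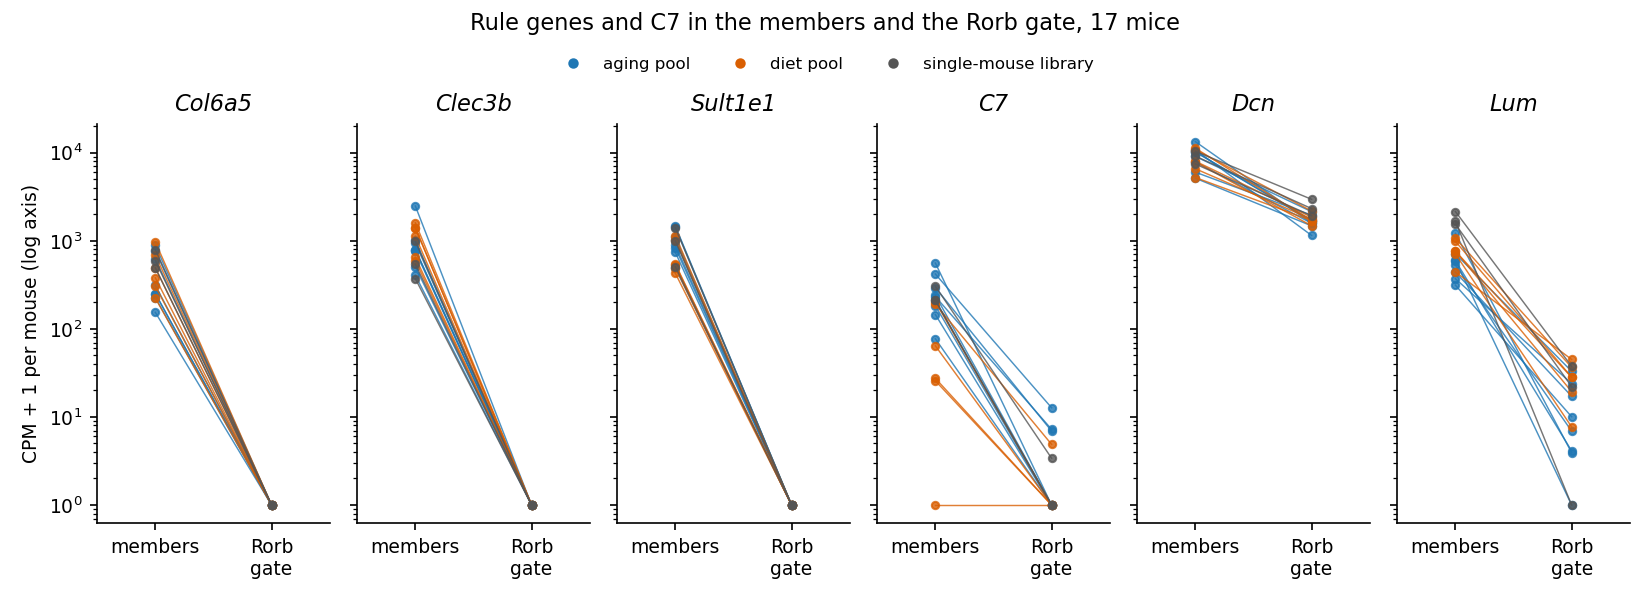
CPM plus 1 (log axis) of *Col6a5*, *Clec3b*, *Sult1e1*, *C7*, *Dcn* and *Lum* in Col6a5 Clec3b fibroblasts and in Rorb fibroblasts, 1 point per mouse and population, 17 mice. The first 3 genes are at 0 in Rorb fibroblasts by the choice of cells, and the *Dcn* points of the 2 populations do not overlap.

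*C7* was not used to choose the cells. It had 0, 203 and 558 CPM (lowest, median, highest mouse) in members and 0, 0 and 11.7 CPM in Rorb fibroblasts, a total of 322 against 12 UMIs. The value in members was the higher in 16 of 17 mice, and the exception was a caloric restriction mouse with 0 in both. Summed over cells, members had 251 CPM of *C7* in the aging pool, 49.5 CPM in the diet pool and 258 CPM in the single-mouse libraries. Over the 17 mice *C7* did not pass the filter on low counts. In the aging pool alone, where it passed, its log2 fold change was 6.31 (adjusted p = 1.46e-07, edgeR), and in the single-mouse libraries alone 7.16 (adjusted p = 0.00026). Over all mice without that filter its log2 fold change was 6.13 (adjusted p = 3.28e-93, edgeR), and DESeq2 gave 6.67 (adjusted p = 1.74e-39). The edgeR fit without the filter called 2531 genes in all, against 733 with it, so its p value cannot be set beside those above. *C7* had been named as a marker of this population before these tests, so their p values are no independent evidence for it. Only 26.1% of members had a *C7* UMI (128 cells), 26.9% had a *Pi16* UMI (132 cells), 6.11% had both and 53.2% had neither.

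This comparison asked which other genes set Col6a5 Clec3b fibroblasts apart from Rorb fibroblasts of the same gland, which were 2243 of the 4233 stromal cells. Stromal cells in neither population did not enter it. Several matrix, complement and chemokine genes were higher in members, and the Wnt ligands tested, steroid 5-alpha-reductase 2 and smooth muscle genes were lower. Of 2189 genes that passed the filter, 370 were higher in members (16.9%) and 363 lower (16.6%) at an adjusted p under 0.05 (edgeR, quasi-likelihood, blocked by mouse, 17 mice, Benjamini-Hochberg). The median log2 fold change over all 2189 genes was -0.03. Scaling by library size alone moved that median to -0.15 and the split to 253 higher and 460 lower. Without the filter, 660 of 17033 genes were higher and 1871 lower, and the median of the same 2189 genes was -0.38. DESeq2 called 707 of 17033 genes higher and 696 lower, and of the 2189 genes 286 higher and 388 lower, with a median of -0.09. The balance of rises and falls thus moved with the scaling and the filter, and changes below are relative to the main scaling. The 14 genes that chose the cells stayed out of the test. Each p value sets a gene's difference between the populations against its spread over mice and is no measure of how steady the gene was. The populations were split on the genes of the choice, so genes that vary together with those can differ through the choice itself. Of the 2189 genes, 48 (2.19%) had ranges over mice that did not overlap between the populations.

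The 10 largest rises and falls were taken among genes with a mean log2 CPM of at least 5 that went the same way in all 17 mice. Several of the rises encode matrix proteins. *Aspn*, asporin, a small leucine-rich proteoglycan, had 101, 231 and 1200 CPM (lowest, median, highest mouse) in members and 0, 0 and 8.52 CPM in Rorb fibroblasts. Its log2 fold change was 7.09 ± 0.27 (SE, adjusted p = 1.04e-15), the largest of the named rises. *Ogn*, osteoglycin, of the same protein family, had 420, 612 and 1223 CPM against 0, 11.2 and 32.6 CPM, a log2 fold change of 5.72 ± 0.26. *Col14a1*, a collagen that decorates fibril surfaces, rose by 4.59 ± 0.31, *Postn*, periostin, by 4.25 ± 0.32, *Sparcl1*, hevin, by 4.15 ± 0.29, and *Col6a3*, a further chain of collagen VI, by 3.90 ± 0.21. *Col6a3* had 135, 502 and 1138 CPM in members against 0, 34.1 and 94.7 CPM, and the lowest member value lay above the highest of the Rorb fibroblasts. All of these were higher in members of 17 of 17 mice.

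The other 4 of these 10 rises were *C3*, *Thbd*, *Gpx3* and *Tm4sf1*. *C3*, the central complement protein, had 114, 1244 and 4386 CPM in members and 0, 11.2 and 186 CPM in Rorb fibroblasts (log2 fold change 5.90 ± 0.32, adjusted p = 9.13e-13). It was higher in every one of the 17 mice, although the lowest member value lay below the highest Rorb fibroblast value. *Thbd*, thrombomodulin, a surface receptor of thrombin, had 105, 360 and 621 CPM against 0, 2.13 and 21.1 CPM (6.25 ± 0.23). *Gpx3*, a secreted glutathione peroxidase, had 329, 1489 and 2006 CPM against 25.0, 51.4 and 334 CPM (4.32 ± 0.28). *Tm4sf1*, a membrane protein, rose by 4.41 ± 0.33. Rises above that of *Col6a3* in 16 of 17 mice were those of *Ccl11* (5.30), *Ctla2a* (4.53) and *Ptx3*, pentraxin 3 (4.24).

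The falls held enzymes, surface matrix proteins and a growth factor. *Srd5a2*, the enzyme that turns testosterone into dihydrotestosterone, had 0, 0 and 99.1 CPM in members and 26.3, 273 and 392 CPM in Rorb fibroblasts, a log2 fold change of -4.74 ± 0.33 (adjusted p = 4.14e-11). *Hgf*, hepatocyte growth factor, which acts on epithelial cells, had 0, 0 and 18.3 CPM against 53.6, 108 and 195 CPM (-4.68 ± 0.29). *Gatm*, the first enzyme of creatine synthesis, had 0, 0 and 23.8 CPM against 70.3, 179 and 261 CPM (-6.49 ± 0.31). Members of all mice held 2 UMIs of *Gatm*, which makes the pooled level 151 times lower (95% exact counting interval 41.6 to 1245). Most mice thus had no UMI of these 3 genes in members. The log2 fold change was -5.14 for *Gpc1*, a glypican, -5.02 for *Coch*, cochlin, -4.75 and -4.51 for *Col13a1* and *Col23a1*, both transmembrane collagens, -4.36 for *Lamc3*, a laminin chain, and -4.71 and -4.70 for *Tmem132c* and *Gm48898*. All 10 were lower in members of 17 of 17 mice.

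**Figure D2:**
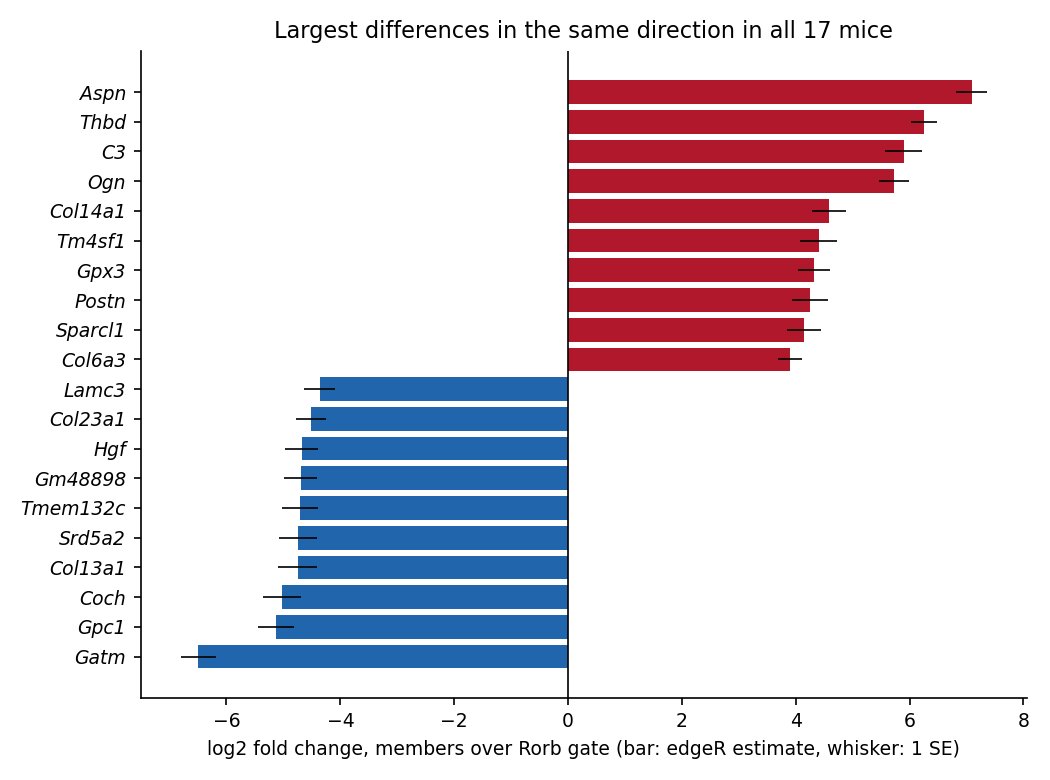
Log2 fold change of the 10 largest rises and 10 largest falls among genes that went the same way in all 17 mice, Col6a5 Clec3b fibroblasts against Rorb fibroblasts, bars of 1 SE, 17 mice, edgeR. The rises run from 3.90 (*Col6a3*) to 7.09 (*Aspn*) and the falls from -4.36 (*Lamc3*) to -6.49 (*Gatm*).

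Genes known for adventitial fibroblasts were mostly higher in members. Of 19 on the list 10 passed the filter, 8 rose (7 with library size alone) and none fell. The median log2 fold change was 1.23 against -0.03 over all genes. *Dpt*, dermatopontin, had 302, 559 and 897 CPM in members and 39.2, 71.8 and 136 CPM in Rorb fibroblasts (2.86 ± 0.17), with no overlap. *Pi16*, a peptidase inhibitor, had 0, 238 and 893 CPM against 7.40, 63.2 and 102 CPM (2.38 ± 0.30, adjusted p = 8.37e-07) and was higher in 16 of 17 mice, so its ranges overlapped. *Cd34*, a sialomucin, rose by 1.16, *Cd55*, a complement regulator, by 2.09 and *Il33*, an alarmin cytokine, by 1.73. Of 14 parenchymal fibroblast genes 12 were tested, of which 5 rose and 3 fell (median 0.22), or 4 and 3 with library size alone. The gene that the list is named for, *Col15a1*, a basement membrane zone collagen, had 20.1, 110 and 318 CPM in members and 267, 430 and 602 CPM in Rorb fibroblasts (-1.89 ± 0.20), lower in all 17 mice. *Penk*, proenkephalin, and *Cygb*, cytoglobin, fell (-1.04 and -0.80). The 5 rises on the parenchymal list were *Gpx3* and *Sparcl1*, described above, *Inmt*, a methyltransferase (1.98), *Hspg2*, perlecan (1.17), and *Col4a1* (0.35).

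Markers of other cell types were read in the same cells, as sums with no test. The 5 secretory markers were the most abundant, at 112016 CPM over all members and 60172 CPM over all Rorb fibroblasts. They ran from 2349 to 470528 CPM in members of the 21 mice with a median of 9040. Mouse by mouse the order of these sums did not hold: *Svs5*, the leading marker, was higher in members of 8 of 17 mice, with medians of 3316 and 16345 CPM. The 5 smooth muscle markers summed to 629 and 2662 CPM. The 5 mesothelial markers summed to 630 CPM in members and 177 CPM in Rorb fibroblasts, led by *Upk3b* at 222 CPM, and were detected in members of all 21 mice (25.7, 463 and 1981 CPM in the lowest, median and highest mouse). Their part in the values above was not tested. Macrophage markers summed to 37.8 and 21.4 CPM, led by *C1qa* at 24.5 CPM, with *Ptprc* at 0 by the choice of cells. Endothelial markers summed to 59.1 and 8.33 CPM, led by *Kdr* at 43.1 CPM, with *Pecam1* at 0 by the choice. Pericyte markers summed to 71.3 and 34.5 CPM. Of the Schwann markers *Sox10* and *Cdh19* were at 0, and all 5 adipocyte markers were at 0.

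Of 16 complement genes 9 were tested, 7 rose and none fell, *C3* among the rises, with a median log2 fold change of 1.18 against -0.03 over all genes. *Serping1*, the inhibitor of C1, had 1142, 1686 and 2462 CPM in members against 527, 738 and 1402 CPM in Rorb fibroblasts (1.16 ± 0.09), higher in 17 of 17 mice with overlapping ranges. *C1ra* and *C1s1*, the C1 proteases, rose by 1.18 and 0.68, and *Clu*, clusterin, by 1.40. *C2*, a further protease of the cascade, and *Cd59a*, which blocks the attack complex, did not pass (-0.41, adjusted p = 0.278, and -0.38, adjusted p = 0.213).

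Of 10 collagens on a list of fibrillar, fibril-associated and other collagens 8 were tested, of which 6 rose and 2 fell (median 1.17). The 2 that fell were the transmembrane collagens *Col13a1* and *Col23a1* described above, and the 6 that rose were fibrillar or fibril-associated. *Col3a1*, collagen III, had 416, 883 and 4780 CPM in members and 151, 435 and 1499 CPM in Rorb fibroblasts (1.48 ± 0.16), and was higher in 17 of 17 mice although the ranges overlapped. *Col5a1* rose by 1.60 and *Col12a1* by 2.18. All 3 tested chains of collagen VI apart from the gate gene rose, with *Col6a1* and *Col6a2* by 0.63 and 0.86 beside *Col6a3*. Of 14 basement membrane genes 12 were tested, of which 5 rose and 6 fell (median -0.25). With library size alone 4 rose and 6 fell. Of the laminin chains, *Lama2* and *Lamb1* fell (-1.53 and -1.44 on the log2 scale), and *Lamb2* and *Lamc1* rose by 1.01 and 1.37. *Nid1*, nidogen, rose by 1.27. Of the collagen IV chains, *Col4a1* rose by 0.35, *Col4a5* and *Col4a6* fell (-0.45 and -1.18) and *Col4a2* did not pass (-0.06).

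Of 10 genes on a list of proteoglycans and related genes 6 were tested, with 5 rises and 1 fall (median 0.94). With library size alone there were 4 rises and 1 fall. The rises were the small proteoglycans *Aspn*, *Ogn* and *Prelp* (0.54), the large proteoglycan *Vcan*, versican (0.68), and *Igfbp6*, an insulin-like growth factor binding protein that is no proteoglycan and is given with its family below. The fall was *Bgn*, biglycan, a small proteoglycan, at -0.55. That call was lost without the block by mouse (adjusted p = 0.149, edgeR), and in the single-mouse libraries alone the value was 0.41. Of 18 elastic fibre genes 10 were tested, of which 6 rose and 2 fell (median 1.57). *Fbln1*, fibulin 1, had 461, 571 and 1098 CPM in members and 15.4, 78.4 and 204 CPM in Rorb fibroblasts (3.24 ± 0.22), with no overlap. *Mfap4* and *Mfap5*, microfibril proteins, rose by 3.17 and 2.08, *Lox*, which cross-links collagen and elastin, by 1.93, and *Fbn1*, fibrillin 1, by 1.30. *Fbln5* and *Ltbp4* fell (-0.75 and -0.44). Of 16 matrix proteases and inhibitors 13 were tested, with 8 rises and 3 falls (median 0.56), or 6 and 3 with library size alone. *Htra3*, a serine protease, rose by 2.55 and *Timp1*, a metalloprotease inhibitor, by 1.11, while *Mmp2* and *Timp3* fell (-0.73 and -0.62).

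Steroid genes were few in the test. Only 3 of 17 passed the filter and all 3 were lower in members, among them *Srd5a2*, described above, and *Tsc22d3*, a target of the glucocorticoid receptor (-0.82).

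Wnt genes outside the choice were mostly lower. Of 25 on the list 6 were tested, of which 1 rose and 4 fell (median -2.96). The ligand *Wnt4* had 0, 0 and 80.3 CPM in members and 113, 174 and 252 CPM in Rorb fibroblasts (-3.60 ± 0.34), with no overlap. The ligand *Wnt6* (-3.80) and the receptor *Fzd1* (-2.37) fell too. The secreted inhibitors went opposite ways. *Sfrp2* had 0, 26.6 and 330 CPM against 338, 582 and 1059 CPM (-3.56 ± 0.31), and *Sfrp1* had 45.0, 300 and 842 CPM against 19.6, 47.4 and 190 CPM (2.49 ± 0.18), each in the same direction in 17 of 17 mice. The Rorb fibroblasts were themselves chosen partly on Wnt genes.

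Among 20 genes of the TGF-beta and BMP pathway 5 were tested, with 1 rise and 2 falls. *Bmp2*, a ligand, had 0, 15.7 and 67.4 CPM in members and 107, 148 and 277 CPM in Rorb fibroblasts (-2.60 ± 0.26), with no overlap. *Bmp4* fell by 1.32 on the log2 scale, and *Fstl1*, a follistatin-like secreted protein, rose by 1.24. Of 16 growth factors 6 were tested and none rose, and *Hgf* was the 1 that fell (2 fell with library size alone). *Igf1*, insulin-like growth factor 1, had a log2 fold change of -0.50 with an adjusted p of 0.0655 (-0.68 and 0.0487 without the block by mouse, edgeR), and *Vegfa*, the vessel growth factor, of 0.26 with an adjusted p of 0.576. Of the insulin-like growth factor binding proteins, *Igfbp6* rose by 1.19 and *Igfbp5* fell by 1.47, and *Igfbp3* did not pass (-1.07, adjusted p = 0.109). With library size alone 1 of the 5 tested on that list rose and 2 fell. In the diet pool alone *Igfbp5* had 0.021 (adjusted p = 0.987, edgeR).

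Chemokines and cytokines were mostly higher in members. Of 21 on the list 12 were tested, of which 9 rose and 2 fell (median 1.31). *Ccl11*, eotaxin, which attracts eosinophils, had 0, 696 and 3859 CPM in members and 0, 10.5 and 56.1 CPM in Rorb fibroblasts (5.30 ± 0.55, higher in 16 of 17 mice). *Ccl7*, a monocyte chemokine, had 1115, 3033 and 7889 CPM against 375, 858 and 2907 CPM (1.76 ± 0.14), higher in 17 of 17 mice with overlapping ranges. *Ccl2* and *Cxcl1* rose by 1.07 and 1.63, *Cxcl12* by 0.83, *Il6* by 1.43 and *Csf1*, a growth factor of macrophages, by 1.19. *Cxcl14* and *Cxcl10* fell (-3.01 and -2.13).

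The remaining lists were small or mixed. Of 19 genes known to respond to tissue dissociation, all 19 were tested, of which 6 rose and 3 fell, or 3 and 4 with library size alone. Of 14 retinoid genes 4 were tested, with 1 rise and 2 falls, or 0 and 2 with library size alone. *Aldh1a1*, which makes retinoic acid, and *Rdh10*, which makes retinal, fell (-0.94 and -0.91). The call of *Rdh10* was lost without the block by mouse. Among homeobox and related factors 3 of 18 were tested, with *Meis2* at 1.81 and *Tbx3* at -1.94. All 3 tested smooth muscle genes fell. *Acta2*, smooth muscle actin, had 0, 33.0 and 1730 CPM in members and 14.5, 645 and 2617 CPM in Rorb fibroblasts (-2.06 ± 0.46), and *Tagln*, transgelin, and *Des*, desmin, had -2.38 and -1.21. None of the secretory (5 tested), epithelial (2 tested) or mesothelial (1 tested) marker genes passed. *Svs5*, a seminal vesicle secretory protein gene, had 1211, 3316 and 152340 CPM in members and 1931, 16345 and 103623 CPM in Rorb fibroblasts. It was also found in immune and endothelial cells, at 86183 and 116151 CPM over the summed cells.

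**Figure D3:**
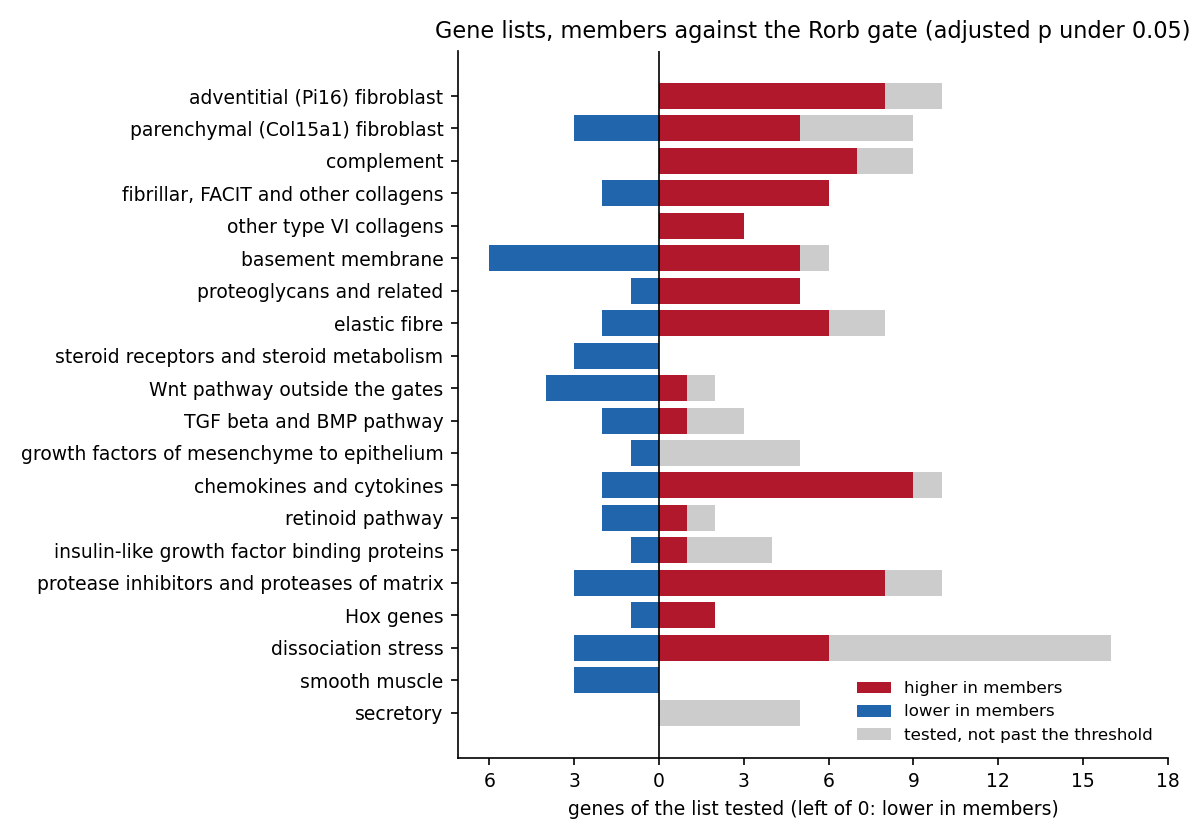
Number of tested genes per list that were higher, lower or not past an adjusted p of 0.05 in Col6a5 Clec3b fibroblasts against Rorb fibroblasts, for lists with at least 3 tested genes, 17 mice. Complement (7 higher, 0 lower of 9) and adventitial genes (8 higher, 0 lower of 10) lie on the higher side and Wnt genes (1 higher, 4 lower of 6) on the lower.

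In the 2 libraries of individual FVB/NJ mice of 3 and 18 months, which had high *Gpx5* and almost no *Svs5* and were not used to set the rule, the same rule took 393 and 268 cells against 90 and 32 Rorb fibroblasts. With 1 mouse each there was no test. The Rorb fibroblasts were 4.53 and 1.35% of stromal cells there, against 35.2 to 75.9% in the 21 mice, and had 125 and 46.5 CPM of *Rorb*, against 502 CPM in the lowest of the 17 mice. They also had 7364 and 5875 CPM of *Acta2*, 4502 and 3467 CPM of *Tagln* and 2023 and 861 CPM of *Des*, all smooth muscle genes, against 372 and 653, 265 and 326, and 129 and 199 CPM in members. The part of these markers in the values below was not tested. Of the genes called above with at least 10 UMIs there, 67.4% of 720 went the same way in the younger mouse and 69.0% of 715 in the older. Of the 20 genes named for their size, 15 and 14 had at least 10 UMIs, and 14 and 12 of those kept their direction. *Sparcl1* did not: it had 189 CPM in members and 2683 CPM in Rorb fibroblasts of the younger mouse, and 208 and 2013 CPM in the older. *Col15a1*, lower in members of the 17 mice above, was higher in members here, at 467 against 37.5 CPM in the younger mouse and 510 against 58.2 CPM in the older. *Cygb* (464 against 29.2 and 460 against 58.2 CPM) and *Fbln5* (587 against 117 and 573 against 163 CPM) were likewise higher, and *Col12a1* was lower (211 against 1222 and 208 against 558 CPM). *Bgn* had 2403 against 1460 and 1720 against 1559 CPM. Tissue and mouse cannot be told apart in these 2 libraries, and their values are no repeat of the comparison in the seminal vesicle. *Gpc1* had 44.1 CPM in members and 23.3 CPM in Rorb fibroblasts of the older mouse. *C7* had 864 to 907 CPM in members and 0 in Rorb fibroblasts, and *Col6a5* 3048 to 3931 CPM.

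The difference between members and Rorb fibroblasts was then compared between the pools, in 8 aging pool and 6 diet pool mice. Of 3647 genes, 14 (0.384%) had a difference that itself differed, 7 in each direction, and 416 had an unadjusted p under 0.05 (edgeR). *Igfbp3*, an insulin-like growth factor binding protein, had 0, 37.5 and 66.9 CPM (lowest, median, highest mouse) in members of the aging pool and 93.6, 415 and 1330 CPM in those of the diet pool. In Rorb fibroblasts it had 101, 354 and 943 CPM against 115, 271 and 421 CPM, so the pools separated in members and overlapped in Rorb fibroblasts (interaction log2 -4.33 ± 0.65, adjusted p = 0.00334). *Rgs16*, a regulator of G protein signalling, had 0, 4.57 and 20.4 CPM in members of the aging pool and 31.2, 84.1 and 188 CPM in those of the diet pool (-3.92 ± 0.57, adjusted p = 0.00334). *Ccn2*, a matricellular protein, had 46.5, 110 and 239 CPM against 347, 612 and 1315 CPM in members (-2.85). *Fn1*, fibronectin, went the other way, with 267, 521 and 1089 CPM in members of the aging pool and 26.3, 96.3 and 218 CPM in those of the diet pool (4.09 ± 0.68, adjusted p = 0.00956). For all 4 genes the members' ranges in the 2 pools did not overlap, as for 7 of the 14 and for 67 (1.84%) of the 3647. The 2 mice of the aging pool that were 3 months old, like the diet pool mice, had 11.6 and 66.9 CPM of *Igfbp3*, 0 and 0 CPM of *Rgs16*, 46.5 and 239 CPM of *Ccn2*, and 569 and 449 CPM of *Fn1* in members. These 2 mice are among the 8 of the aging pool, so their place outside the diet pool's range follows from the lack of overlap. It is no separate comparison at equal age. *Thbs1*, thrombospondin 1, and *Aebp1*, a collagen-binding protein, had interactions of -1.55 and 1.65, and their members' ranges in the pools overlapped.

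**Figure D4:**
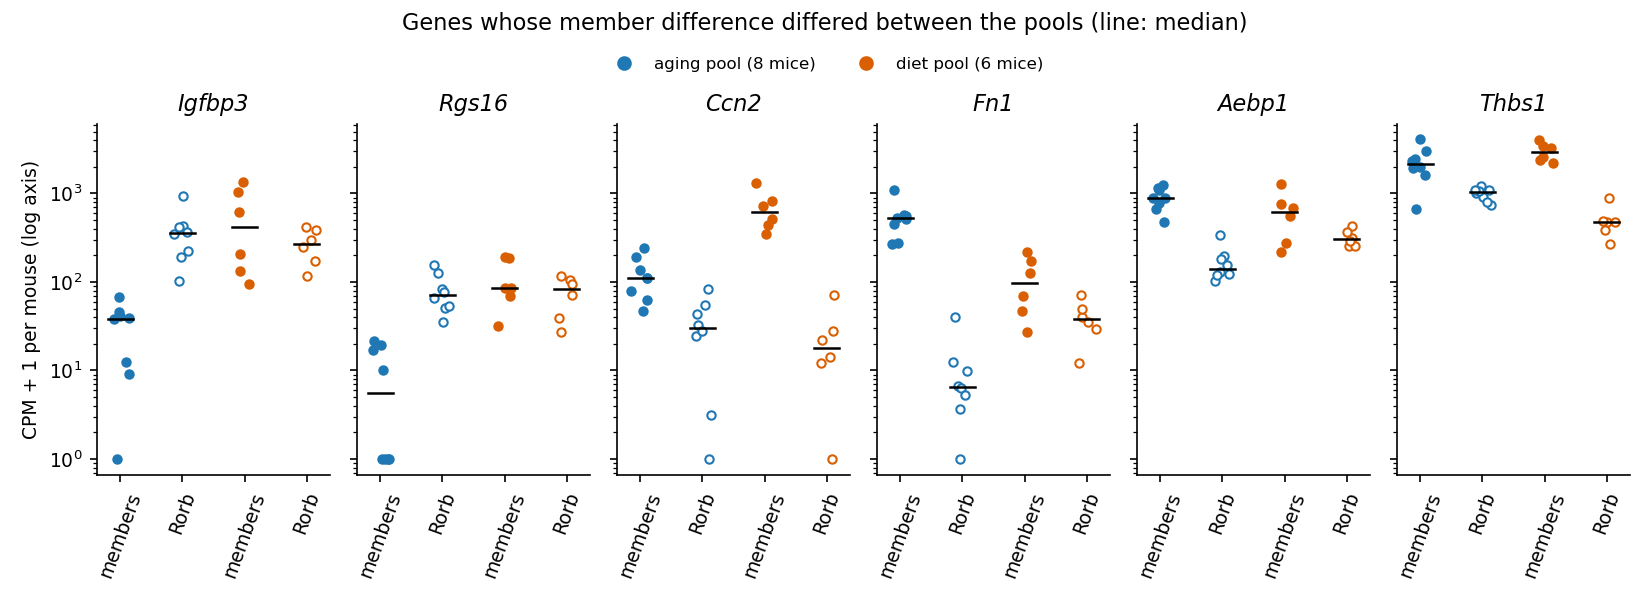
CPM plus 1 (log axis) of 6 of the 14 genes in Col6a5 Clec3b and Rorb fibroblasts of the aging pool (8 mice) and the diet pool (6 mice), 1 point per mouse, lines at medians. *Igfbp3*, *Rgs16* and *Ccn2* are lower, and *Fn1* higher, in members of the aging pool than in those of the diet pool, with no overlap.

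Another stromal population carries *Angptl7*, which encodes a secreted angiopoietin-like protein. Its 44 cells with at least 2 UMIs of *Angptl7* and no gate gene reached 10 cells in only 2 mice, and 0 of 487 genes (0%) differed from members, with 43 at an unadjusted p under 0.05 (edgeR) and 0 calls by DESeq2. The 3 genes with the lowest p were *Cxcl1* at 2.21 ± 0.48 (adjusted p = 0.0952), *Gpx3* at 1.80 (adjusted p = 0.108) and *Myoc*, myocilin, at -1.55 (adjusted p = 0.216). With gate genes allowed there were 139 such cells, of which 68 (48.9%) had at least 2 gate UMIs themselves. Those 68 cells were kept out of the members by the limit on *Angptl7* alone. In the 3 single-mouse libraries 0 of 581 genes (0%) passed, with 49 at an unadjusted p under 0.05 and 0 by DESeq2. *C7* had 291, 216 and 174 CPM in members of the 3 mice and 77.7, 26.0 and 32.6 CPM in the *Angptl7* cells (log2 fold change 2.35 ± 0.44, adjusted p = 0.0838). *Serpinf1*, pigment epithelium-derived factor, had 583, 503 and 868 CPM against 1258, 1411 and 1368 CPM (-1.14, adjusted p = 0.0838), and *Ccl7* differed by 1.18 (adjusted p = 0.0828). The values of *C7* and *Serpinf1* did not overlap between the populations, as for 88 (15.1%) of the 581 genes, and neither gene passed the threshold.

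Few genes passed a test between members that carried different gate genes. Those led by *Clec3b* (168 cells) and by *Col6a5* (49 cells) could be compared in 5 mice with at least 3 of both, where 0 of 263 genes (0%) passed, with 12 at an unadjusted p under 0.05 (edgeR) and 0 by DESeq2. Members with and without *Col6a5* were compared in 16 mice with at least 5 of each. There 1 of 439 genes (0.228%) passed. It was *Gpx3*, higher in members with *Col6a5* by 1.08 ± 0.19 on the log2 scale (adjusted p = 0.00907) and in 15 of 16 mice, and the call was lost with library size alone (adjusted p = 0.0786) and without the single-mouse libraries. *Dusp1*, a phosphatase induced by stress, came next at 0.69 (adjusted p = 0.0593).

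Age and rapamycin, which inhibits the growth kinase mTOR, were compared within the aging pool over the 8 mice with at least 10 members. With age as a number of months, 0 of 2685 genes (0%) passed in members, with 177 at an unadjusted p under 0.05 (edgeR) and 1 call by DESeq2. The lowest p belonged to *Myl7*, an atrial myosin light chain, at -0.22 per month (adjusted p = 0.222), which had 247 and 97.4 CPM in the 3-month mice and 0 to 16.9 CPM in the others. *Lif*, a cytokine, had 10.3 and 8.85 CPM at 3 months and 16.9 to 160 CPM later (0.16 per month), and *Cryab*, a small heat shock protein, changed by -0.06 per month. For rapamycin 0 of 2685 genes (0%) passed, with 146 at an unadjusted p under 0.05 and 13 calls by DESeq2. *Timp1* had 169 and 247 CPM with rapamycin and 543 to 964 CPM in the old mice without it (-1.79, adjusted p = 0.306), and *Wfdc12* and *Svs3b* were the other genes with the lowest p. Only 2 rapamycin mice entered this comparison. How many of the 2685 genes had values as fully apart between these few mice as *Myl7*, *Lif* and *Timp1* was not counted. The secretory markers summed to 82006 and 253883 CPM in members of the 3-month mice, 336354 CPM in the first 28-month rapamycin mouse, 7119 CPM in the second 20-month rapamycin mouse, and 6004 to 13176 CPM in the old mice without rapamycin. Their part in the age and rapamycin values was not tested. Without the second 20-month rapamycin mouse the counts became 24 for age and 25 for rapamycin, and without the first 28-month rapamycin mouse 20 and 3. Leaving out any other mouse gave 0 or 1. With 1 rapamycin mouse left, that mouse was assumed to vary like the others. A gate of at least 3 UMIs gave 22 for age.

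The diets were compared with the control diet in 9 FVB/NJ mice (3 low protein, 2 high fat, 2 caloric restriction and 2 control). In members, 1 of 1211 genes (0.0826%) passed for the high fat diet and 1 of 1211 (0.0826%) for the low protein diet, and both were *Acta2*. It had 1776 CPM in the control pool mouse and 158 CPM in the control single-mouse library, 25.5 and 0 CPM on high fat, 33.2, 23.4 and 0 CPM on low protein, and 513 and 648 CPM on caloric restriction. The log2 fold changes were -6.09 ± 0.58 (adjusted p = 0.00141) and -5.96 ± 0.52 (adjusted p = 0.000702). The control pool mouse had the highest sum of the 5 smooth muscle markers in its members, at 5227 CPM, and the caloric restriction mice followed at 1258 and 1161 CPM. Without that control mouse neither call was made (0 genes each), nor with a gate of at least 3 UMIs, and without the high fat pool mouse the high fat call was lost (0 genes). The part of smooth muscle RNA in this result was not tested.

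For caloric restriction 0 of 1211 genes (0%) passed, with 67 at an unadjusted p under 0.05 (edgeR) and 0 by DESeq2. Both caloric restriction mice were in the diet pool, with 1 control mouse there and 1 in a single-mouse library, and the diet fits had a term for pool or single-mouse library. *Ccl11* had 900 and 695 CPM on caloric restriction, 117 CPM in the control pool mouse and 63.2 CPM in the control single-mouse library (2.62, adjusted p = 0.237). Control values below are in that order. *Htra3* had 224 and 232 CPM against 58.7 and 126 CPM (2.30, adjusted p = 0.274), and *Rgcc*, a cell cycle regulator, had 16.8 and 7.99 CPM against 250 and 158 CPM (-3.80, adjusted p = 0.204). The values of all 3 did not overlap between these diets, as for 451 (37.2%) of the 1211 genes, and none of the 3 passed. Leaving out 1 caloric restriction mouse gave 17 or 28 genes for that diet, 7 each time for high fat, and 19 or 16 for low protein. A diet left with 1 mouse was assumed to vary like the other diets. Leaving out the first high fat pool mouse or the control or high fat single-mouse library gave 5 for caloric restriction and 6 for low protein, and leaving out either of those libraries gave 3 for high fat.

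The share of members among stromal cells was read after each cell was thinned to 1000 UMIs, and the rule was applied again to the thinned counts. Cells below that depth were left out, 41 members among them, and in all 447 stromal cells of the single-mouse libraries, 47 of the diet pool and 13 of the aging pool. With fewer UMIs per cell, 106 cells met the rule in the aging pool, 147 in the diet pool and 40 in the single-mouse libraries, against 186, 225 and 80 before. Members were 17.9% ± 7.14 (SD, n = 10 mice, 11.4 to 33.3%) of stromal cells in the aging pool and 9.02% ± 3.66 (SD, n = 8 mice, 3.90 to 15.6%) in the diet pool. The difference of 8.88 percentage points had p = 0.00295 in a two-sided exact permutation test over mice (adjusted p = 0.0118 over 4 comparisons). As a share of all cells the pools differed by -0.17 points (exact permutation p = 0.845), so the difference was seen relative to other stromal cells only. The 2 aging pool mice of 3 months had 12.0 and 14.3%. The highest diet pool mice had 15.6% (caloric restriction) and 11.6% (low protein), so only the first of these lay above them. Thinned to 2000 UMIs, the same 2 aging pool mice had 16.1 and 12.1%, and the highest diet pool mouse 14.8%. The 3 single-mouse libraries had 6.92% (control), 7.39% (high fat) and 4.62% (low protein) of stromal cells.

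Within the aging pool the share was 13.1% ± 1.62 (SD, n = 2) at 3 months and 19.1% ± 7.56 (SD, n = 8) at 20 and 28 months, a difference of 5.94 points (exact permutation p = 0.378, adjusted p = 0.504). It was 3.90 points without the first 20-month rapamycin mouse and 3.24 points with a gate of at least 3 UMIs. With and without rapamycin the old mice differed by 0.04 points (exact permutation p = 1, where the smallest possible p is 0.0556). Its sign changed without thinning, where the difference was -8.49 points. By diet the share was 12.9% ± 3.75 on caloric restriction (10.3 and 15.6%), 8.21% ± 2.07 on control (6.75 and 9.68%), 4.81% ± 1.30 on high fat (3.90 and 5.73%) and 10.1% ± 2.12 on low protein (8.63 and 11.6%), SD with n = 2 each. Among the diet pool mice at this depth the values of the high fat mice were the lowest, and those of the caloric restriction and low protein mice overlapped. That order changed with depth: thinned to 2000 UMIs, the high fat pool mice had 7.79 and 6.67% and the control pool mice 6.47 and 6.45%. The high fat single-mouse library, at 7.39%, also lay above the control one, at 6.92%. Over the 4 diets the exact permutation p was 0.105 (adjusted p = 0.210, F = 3.77, smallest possible p 0.00952). As a share of all cells the diets had an exact permutation p of 0.0190.

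**Figure D5:**
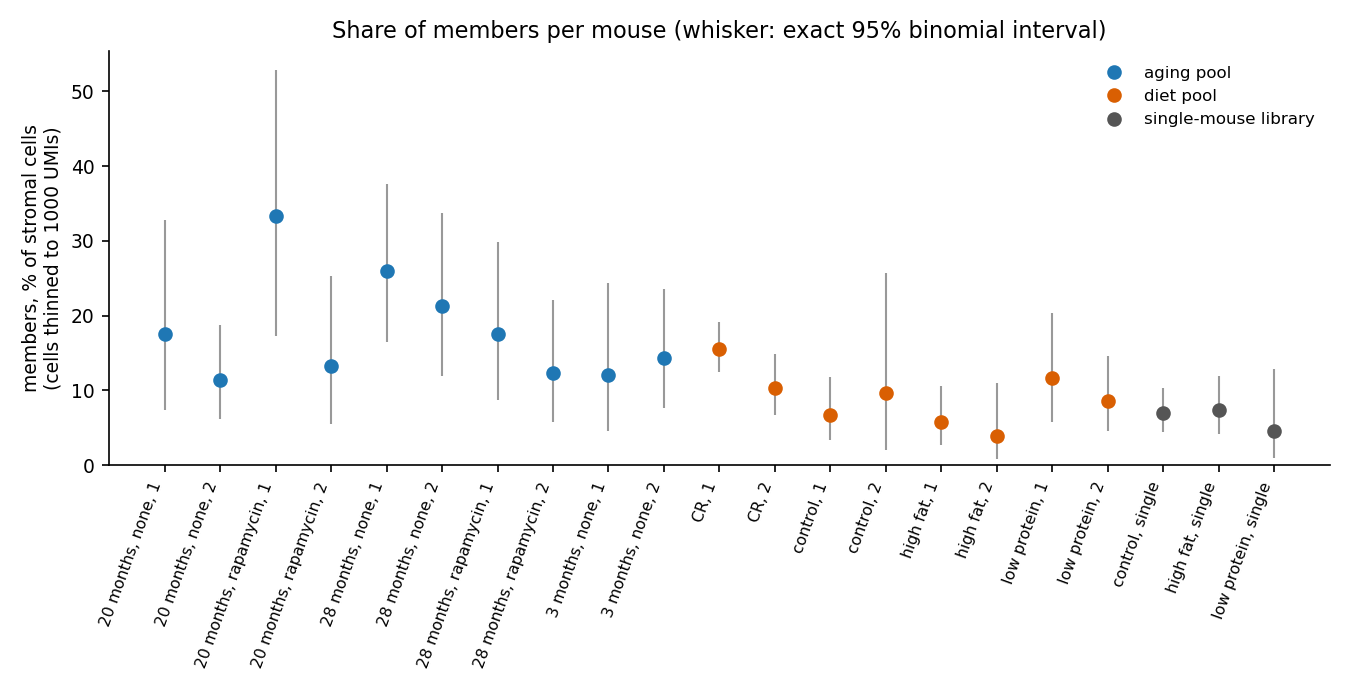
Percent of stromal cells that are Col6a5 Clec3b fibroblasts in each mouse after thinning each cell to 1000 UMIs, with exact 95% binomial intervals that cover counting error only. The aging pool mice lie between 11.4 and 33.3% and the diet pool mice between 3.90 and 15.6%.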

How the data were processed

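The authors deposited 10x gene by cell counts of UMIs, made with Cell Ranger 6.0.1 (pools) and 3.1.0 (single-mouse libraries) on mm10 per the submitters' processing notes. The 30406 genes in both references were kept. Mice of the pools were assigned from the deposited tag assignments. The members and gene lists were chosen with earlier results of these data known. Counts were summed per mouse and population (at least 10 cells) and tested with edgeR 4.0.16 in R 4.3.3 (TMM, filterByExpr, quasi-likelihood test, mouse as a block between populations, Benjamini-Hochberg). Both populations came from the same animals, so the pairing is by mouse. CPM in the gene tests use TMM library sizes. Genes were named when they were gate genes, on the lists, or among the 10 largest rises or falls past an adjusted p of 0.05 with a mean log2 CPM of at least 5 and the same direction in every mouse. For age, rapamycin and diets they were those past 0.05, or else the 3 with the lowest p. Shares were tested by exact permutation in scipy 1.17.1. DESeq2 1.42.0, other scalings, filters, gates, depths and left-out mice were tried as alternatives. The comparison of pools, the wider *Angptl7* population, the subgroups with fewer cells and the members with and without *Col6a5* were added after seeing the data. *Svs5* and *Gpx5* as checks of tissue, and *Ctla2a* and *Ptx3*, were also chosen after values were seen. On simulated data 200 genes were changed by 2 on the log2 scale, and recovery was read over those that were tested. Recovery was 99.5% of 183 between populations and 47.2% of 195 for age. For high fat, low protein and caloric restriction it was 59.9% of 197, 57.0% of 186 and 60.3% of 194. Coordinates are from GENCODE vM21. A *Clec3b*-led against *Col6a5*-led comparison with at least 10 cells of both had no mouse and was not run. Some genes counted in the lists are not reported here by name.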

Additional observations from a re-analysis of the deposited data

Results flagged for a closer look

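In 6 of 30 groups of gene values, 1 mouse stood far from the others of its group by Dixon's criterion, set at about 1 of 20 groups by chance. The groups shared mice and *Clec3b* was a gate gene, so the count of 6 cannot be set against that rate. The 6 values, all in members, were *Clec3b* at 2482 CPM and *Gpx3* at 1001 CPM in the first 3-month mouse, *C3* at 4386 CPM and *Col14a1* at 606 CPM in the first 28-month mouse without rapamycin, *Postn* at 421 CPM in the second 20-month rapamycin mouse, and *Ogn* at 1223 CPM in a low protein pool mouse.

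For 14 genes the log2 difference between Col6a5 Clec3b and Rorb fibroblasts was itself different in the aging and diet pools (edgeR interaction test). It was lower in the aging pool for *Igfbp3* (-4.33), *Rgs16* (-3.92), *Ccn2* (-2.85), *Lbp* (-2.57), *Ms4a4d* (-2.55), *Thbs1* (-1.55) and *Cystm1* (-1.38). It was higher in the aging pool for *Fn1* (4.09), *Ltbp1* (3.06), *H2-T22* (2.98), *Slc43a3* (1.82), *Aebp1* (1.65), *C1qbp* (1.41) and *Gm12840* (1.32). Beyond the 3 genes with adjusted p given above, the other 11 had adjusted p from 0.0474 to 0.0476. Strain, feed, pool and run cannot be told apart here. The members' ranges in the 2 pools did not overlap for 7 of the 14 genes, and for 67 (1.84%) of the 3647 genes tested. The test that called the 14 genes used the same mice.

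The rule also took 393 cells in the 3-month individual and 268 cells in the 18-month individual, in libraries that no test used and that went against their label, with high *Gpx5* and almost no *Svs5*.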

How the results depend on the processing

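Against Rorb fibroblasts the count of 733 genes became 2531 without the filter, 1403 by DESeq2, 222 with cells thinned to 1000 UMIs and 215 in the single-mouse libraries alone. Without the replicate block it was 680. The calls of *Bgn*, *Rdh10* and *Ly6a* were then lost (adjusted p = 0.149, 0.0737 and 0.0782, edgeR) and that of *Igf1* was gained (adjusted p = 0.0487, edgeR). The block changed no other call among the single genes followed through the alternatives. Of the genes followed that passed, those that changed sign were *Igfbp5* in the diet pool alone (0.021) and *Bgn* in the single-mouse libraries alone (0.41). For the *Angptl7* comparison the count of 0 became 4 without the filter, and with gate genes allowed it became 1 with library size alone, 2 with a mitochondrial limit of 5%, 3 without doublets and 5 when thinned. The *Angptl7* comparison had no fit with a gate of at least 3 UMIs, a limit of 5%, thinning or without the single-mouse libraries. *Clec3b*-led against *Col6a5*-led cells gave 16 calls without the filter and 17 in the aging pool alone. Members with against without *Col6a5* gave 16 without the filter and 0 with library size alone, without the single-mouse libraries, and in either pool or the single-mouse libraries alone.

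For age the count of 0 became 81 without the filter, 1 by DESeq2 and 22 with a gate of at least 3 UMIs, and ran from 0 to 24 without each mouse in turn. For rapamycin it became 59 without the filter, 13 by DESeq2 and 1 with library size alone, and ran from 0 to 25. For high fat the count of 1 became 16 without the filter, 0 with the stricter gate, 0 thinned and 0 in the diet pool alone, and ran from 0 to 7. For low protein it became 27 without the filter, 0 with the stricter gate, 0 thinned, 3 with the 5% limit and 2 in the diet pool alone, and ran from 0 to 19. For caloric restriction the count of 0 became 50 without the filter, 1 with the 5% limit and 5 in the diet pool alone, and ran from 0 to 28.

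The share difference with rapamycin was -4.99 points when thinned to 2000 UMIs (exact permutation p = 0.278) and -8.49 without thinning (exact permutation p = 0.0556), and ran from -4.99 to 5.07 without each mouse. The diets' F was 4.94 over all cells, 19.0 when thinned to 2000 UMIs (exact permutation p = 0.0952) and 1.72 with a gate of at least 3 UMIs, and ran from 1.80 to 7.81 without each mouse, with an exact permutation p of 0.0476 without the second caloric restriction mouse. The difference by age was 0.72 points over all cells and 3.24 points with a gate of at least 3 UMIs, and ran from 3.90 to 7.08 without each mouse. The pools differed by -0.17 points over all cells. Causes were not tested. With 4 to 113 members per mouse, genes low in both populations could not be tested. Of the alternatives of the main results, 60 moved a count of genes by over 1.5 times (or to or from 0), 7 changed sign, 2 passed the threshold, and 112 did none of these, although a value could move in size.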
